A study of Mus musculus with 59 samples.

Results

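The genes described here encode extracellular matrix proteins and matrix-associated regulators: the collagen chains, the laminin chains, the ADAMTS proteases with their ADAMTS-like relatives, and the CCN proteins. They were chosen by mouse gene symbol, as rows whose Ensembl identifier maps to a name that starts with Col, a number, a and a number, to Lama, Lamb or Lamc with a chain number, to a name that starts with Adamts, or to Ccn1 to Ccn6. The older names of the CCN genes are Cyr61, Ctgf, Nov and Wisp1 to Wisp3. Of 21935 counted genes 86 met the rule, and 21858 rows were matched to a symbol. One of the 86, Col4a3bp, carries a collagen-like name but encodes a ceramide transfer protein, so 85 matrix genes remained: 44 collagens, 11 laminins, 19 ADAMTS genes, 5 ADAMTS-like genes and 6 CCN genes.

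The study used C57BL/6 mice given 1 intraperitoneal injection of IP118/PY115 or of vehicle and killed 4 h later. Its title names co-agonism at the PYY and GLP-1 receptors in obese-diabetic mice, and the labels give neither age, sex nor diet. Frozen brains were cut at 10 µm, 4 mm2 of each region was taken by laser capture from each animal, and polyA RNA was sequenced with a stranded kit. The groups were IP118/PY115 in the hypothalamic paraventricular nucleus (PVN, n = 10), the arcuate nucleus (ARC, n = 10) and the hindbrain nucleus of the solitary tract (NTS, n = 10), and vehicle in the PVN (n = 10), the ARC (n = 9) and the NTS (n = 10). By this sampling libraries of different regions share animals, but the labels tie no library to an animal. The p-values between regions, and those for differences in treatment effect between regions, take the libraries as independent and may be off.

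Library totals ran between 3964093 and 28510118 counts, and all levels below are CPM, read counts scaled to library size after TMM normalisation. Marker sums were highest in the region of their label. Those of the PVN (Avp, Oxt, Crh and Sim1) had a median of 14082 CPM in PVN, 7.08 CPM in ARC and 3.01 CPM in NTS vehicle libraries, with up to 451 CPM in ARC vehicle 9. Those of the ARC averaged 12.8, 1372 and 6.70 CPM in the same regions, and those of the NTS 0.311, 1.57 and 1101 CPM. In each region the library labelled IP118/PY115 1 and the library labelled vehicle 1 lay with the other treatment for Cdkn1a, a cell cycle inhibitor gene that otherwise separates the treatments. In the NTS it had 8.99 CPM in the library labelled IP118/PY115 1 and 36.7 to 68.2 CPM in the other 9 IP118/PY115 libraries, against 56.3 CPM in the library labelled vehicle 1 and 7.50 to 17.5 CPM in the other 9 vehicle libraries. Fosb and Zbtb16 lay likewise in the PVN and the NTS, and in part in the ARC. In the NTS, Fosb had 0.856 CPM in IP118/PY115 1 and 18.8 to 48.1 CPM in the other IP118/PY115 libraries. It had 39.4 CPM in NTS vehicle 1 and 0.14 to 2.69 CPM in the other vehicle libraries. Zbtb16 in NTS IP118/PY115 1, at 11.904 CPM, was just below the others of its label, from 11.939 CPM. In the ARC, Fosb had 4.30 CPM in vehicle 1, within the 0.787 to 6.72 CPM of the other vehicle libraries. Zbtb16 had 30.2 CPM in ARC IP118/PY115 1, within the 21.7 to 58.3 CPM of the other IP118/PY115 libraries. In ARC vehicle 1 it had 49.5 CPM, above the 9.43 to 20.2 CPM of the other vehicle libraries. The labels were kept, and members whose treatment calls change without these libraries are given both ways. Leaving out libraries picked by their treatment response makes the remaining p-values too optimistic.

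Collagen chains assemble as triple helices into fibrils, basement membrane networks, beaded filaments or cell surface proteins. Laminins are heterotrimers of an alpha, a beta and a gamma chain that organise basement membranes, which in brain line the blood vessels and the pial surface. ADAMTS enzymes are secreted metalloproteases that cut the proteoglycans of the brain matrix or trim procollagens, and CCN proteins are small secreted matrix signalling proteins, some of them rapidly induced.

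In vehicle mice most of these genes differed between the 3 regions. Of the 79 members that passed the filter on low counts, 18 were higher and 25 were lower in the PVN than in the ARC (edgeR quasi-likelihood test, Benjamini-Hochberg adjusted p, here FDR, under 0.05). That is 54.4% of the members, where 46% of all 14379 genes tested were called (24.8% higher and 21.1% lower). Between the PVN and the NTS 18 were higher and 35 lower in the PVN, or 67.1% of the members, against 56.1% of all genes (28.3% higher and 27.8% lower). Between the ARC and the NTS 24 were higher and 35 lower in the ARC, or 74.7% of the members, against 61.7% of all genes (30.2% higher and 31.5% lower). The 3 contrasts share vehicle groups and are not independent. The same shares of all genes are the background for the counts by class and by marker list below, and several classes lie near them. The median absolute log2 difference of the members was 0.72 for the PVN over the ARC, 0.85 for the PVN over the NTS and 0.95 for the ARC over the NTS, where the medians over all genes tested were 0.23, 0.28 and 0.32. Adamts13, Adamts14, Ccn4, Ccn5, Ccn6 and Col10a1 were too low to be tested, each with a mean under 1 CPM in every group. In captured tissue, fewer cells of a type and less RNA per cell cannot be told apart. Library numbers run in separate blocks by region, except for vehicle libraries 5553 to 5557 of the PVN and the ARC. Differences between regions, above all those against the NTS, cannot be told apart from differences between these blocks.

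**Figure D1:**
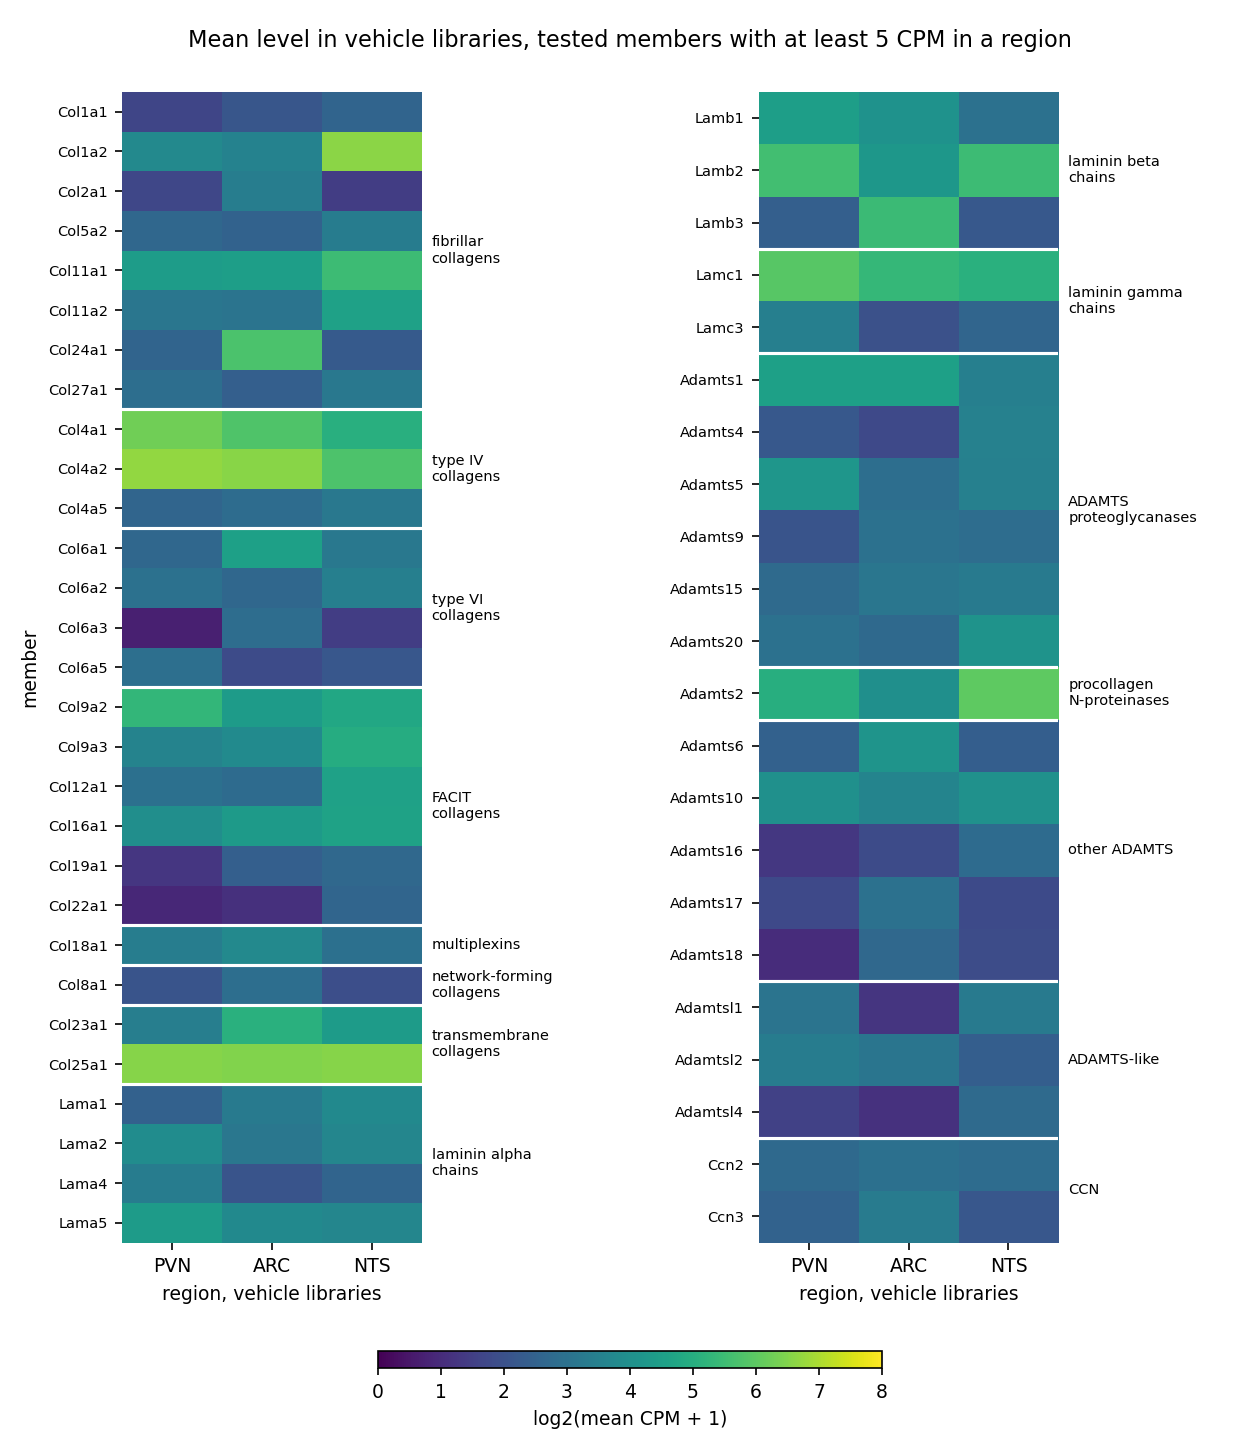
Mean level of the 51 tested members with at least 5 CPM in a region, in vehicle libraries of the PVN, ARC and NTS, as log2(mean CPM + 1) on a colour scale with members in rows by family. Col24a1 and Lamb3 stand out in the ARC column and Col1a2 in the NTS column, while Col25a1, at 89.1 to 92.8 CPM, is alike in all 3 columns.

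The fibrillar collagens build the cable-like fibrils of connective tissue. Of the 11 members, 1 was higher and 4 were lower in the PVN than in the ARC, 0 were higher and 7 lower in the PVN than in the NTS. The ARC had 2 higher and 6 lower than the NTS. These counts lie near the shares of all genes called in the same contrasts, 46%, 56.1% and 61.7%. Col24a1 (ENSMUSG00000028197, chr3:145292472-145552011, GRCm38), a fibrillar collagen of the developing skeleton and cornea, was the member with the widest spread between regions. The 250 bases upstream of its RefSeq start are shown because this gene differed most, with the letters TGACGT in capitals:

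Col24a1, chr3:145292222-145292471, plus strand, GRCm38.p6, RefSeq: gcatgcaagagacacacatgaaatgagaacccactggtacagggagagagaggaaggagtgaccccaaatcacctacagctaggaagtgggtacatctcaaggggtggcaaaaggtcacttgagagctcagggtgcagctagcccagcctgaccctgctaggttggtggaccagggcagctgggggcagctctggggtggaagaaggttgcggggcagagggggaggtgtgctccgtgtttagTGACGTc

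TGACGT is the reverse complement of ACGTCA, the core of the cyclic AMP response element, and starts 7 bases upstream of the start. On either strand, ACGTCA was present in 6.47% of 32851 RefSeq upstream windows of the same length. No match was found for GGAATG (TEAD, present in 12.6% of windows), TGACGTCA (the full cyclic AMP element, 1.55%), TGANTCA (AP-1, 6.75%), the CArG box (1.47%) or TATAAA (12.4%). Each was searched on both strands, and every full cyclic AMP element also holds its core.

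In vehicle libraries Col24a1 ran between 2.81 and 8.14 CPM (median 4.36) in the PVN, between 34.1 and 82.7 CPM (median 44.7) in the ARC and between 2.49 and 5.25 CPM (median 3.44) in the NTS. Every ARC vehicle library lay above every vehicle library of the other regions. The log2 difference was -3.46 ± 0.21 (SE) for the PVN over the ARC (FDR 1.6e-21) and 3.79 ± 0.21 for the ARC over the NTS (FDR 1.1e-23). In IP118/PY115 libraries the means were 4.29 ± 0.805 CPM in the PVN, 64.5 ± 16 CPM in the ARC and 4.72 ± 2.61 CPM in the NTS (SD, n = 10 each).

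Col1a2, which encodes the less numerous chain of type I collagen, showed the other large split. Its vehicle levels ran between 10.4 and 16.4 CPM (median 12) in the PVN, between 5.57 and 23.7 CPM (median 8.86) in the ARC and between 81.9 and 123 CPM (median 92.2) in the NTS. The NTS libraries were all above all others, with log2 differences of -2.91 ± 0.15 for the PVN over the NTS and -3.16 ± 0.15 for the ARC over the NTS (FDR 3.1e-25 and 3.7e-26). Col1a1, which encodes the more numerous chain, averaged 2.15 ± 1.21 CPM in the PVN (SD, n = 10), 3.44 ± 3.80 CPM in the ARC (SD, n = 9) and 5.02 ± 1.42 CPM in the NTS (SD, n = 10), and its regions overlapped. It was lower in the PVN than in the NTS by a log2 difference of -1.25 ± 0.33 (FDR 0.00093), and the ARC over NTS difference did not pass (-0.53 ± 0.32, FDR 0.14). Per kilobase of exon, the NTS vehicle level was 7.74 ± 1.10 CPM per kb for Col1a2 and 0.764 ± 0.217 CPM per kb for Col1a1 (SD, n = 10). In PVN vehicle libraries the same levels were 1.02 ± 0.183 CPM per kb for Col1a2 and 0.328 ± 0.184 CPM per kb for Col1a1.

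Summed markers of meningeal fibroblasts, which line the brain surface and make type I collagen, ran between 14.7 and 36.9 CPM in the PVN, between 21.2 and 115 CPM in the ARC and between 26.6 and 102 CPM in the NTS of vehicle mice. Of that list's 11 genes 8 were tested: 1 was higher and 5 were lower in the PVN than in the NTS. Against the NTS, 3 were higher and 4 lower in the ARC. None of the 11 was at 0 in any group. Their part in the NTS level of Col1a2 was not tested across regions, and the relation within regions is given further on.

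Among the other fibrillar genes, Col2a1, the collagen of cartilage, averaged 2.29 ± 1.66 CPM in the PVN (SD, n = 10), 9.59 ± 2.90 CPM in the ARC (SD, n = 9) and 1.74 ± 0.406 CPM in the NTS (SD, n = 10). It was lower in the PVN than in the ARC (log2 difference -2.03 ± 0.27) and higher in the ARC than in the NTS (2.43 ± 0.27, FDR 3.1e-09 and 6.4e-12). Col11a2, a chain that nucleates cartilage fibrils, averaged 7.88 ± 3.27 CPM in the PVN, 7.45 ± 2.09 CPM in the ARC and 22.7 ± 2.83 CPM in the NTS. Its lowest NTS vehicle library had 18.5 CPM, and the highest of the other regions had 13.7 CPM.

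**Figure D2:**
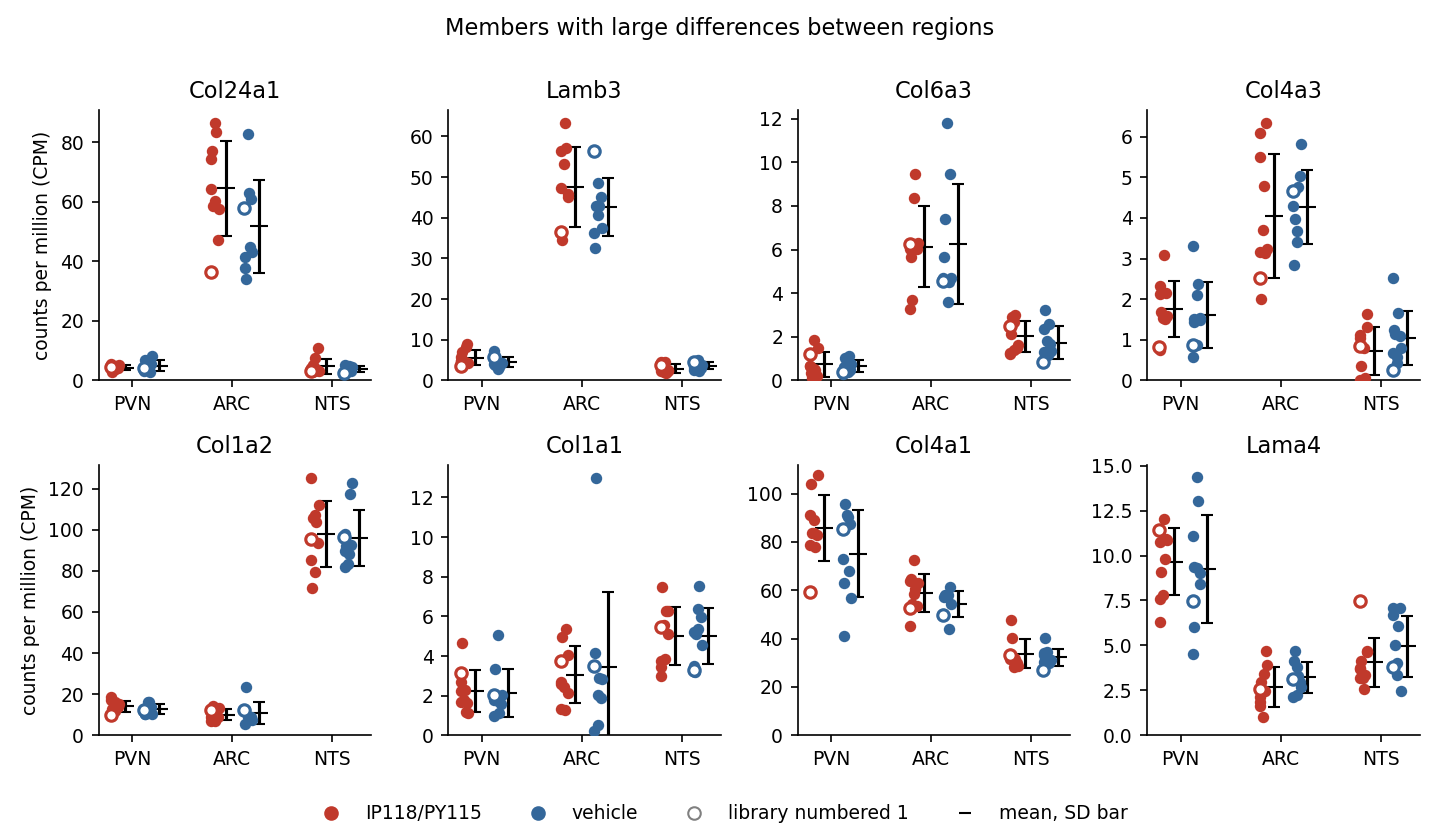
Level in CPM of 8 members in each library by region (x axis), with IP118/PY115 in red left of vehicle in blue; open points are the libraries numbered 1, and bars are the mean and SD. Col24a1 and Lamb3 are high in the ARC under both treatments, Col1a2 is high in the NTS, and Col4a1 steps down across the 3 regions.

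The type IV collagens form the mesh of basement membranes, and their genes lie as head-to-head pairs. Of the 6 members, 1 was higher and 2 lower in the PVN than in the ARC, 2 were higher and 2 lower in the PVN than in the NTS. The ARC had 4 higher and 2 lower than the NTS. Col4a1 and Col4a2, the chains found in nearly every basement membrane, were the most abundant pair; their first exons overlap on opposite strands, so a few reads there may be shared. Col4a1 ran between 41 and 95.6 CPM (median 79.2) in the PVN, between 44 and 61.4 CPM (median 57) in the ARC and between 27 and 40.4 CPM (median 31.3) in the NTS of vehicle mice. The ARC and NTS libraries did not overlap, while the PVN and ARC libraries did. Col4a1 was higher in the PVN than in the ARC (log2 difference 0.47 ± 0.10), in the PVN than in the NTS (1.22 ± 0.10) and in the ARC than in the NTS (0.75 ± 0.11), with FDR values of 1.5e-04, 7.7e-16 and 1.2e-08. Col4a2 had 15.5 ± 3.47 CPM per kb of exon in PVN vehicle libraries and 14.1 ± 1.91 in ARC vehicle libraries, the highest level per length of any member in both regions, while Col9a2 led in the NTS with 8.74 ± 1.56 (SD, n = 10, 9 and 10).

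Endothelial markers were also highest in the PVN, but not in the same order across the regions. Their sum averaged 690 ± 74.2 CPM in the PVN (SD, n = 10), 199.9 ± 18.9 CPM in the ARC (SD, n = 9) and 377 ± 39.3 CPM in the NTS (SD, n = 10) of vehicle mice. All 11 endothelial markers were higher in the PVN than in the ARC, all 11 were higher in the PVN than in the NTS, and all 11 were lower in the ARC than in the NTS. All 11 mural cell markers were higher in the PVN than in the ARC, and 8 of 11 were lower in the ARC than in the NTS. The part of vessel content in the type IV and laminin differences was not tested across regions.

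Col4a3 and Col4a4, chains of the glomerular and other specialised basement membranes, start 71 bases apart on opposite strands, and both were highest in the ARC. The stretch between their starts is shown because it is the shared upstream DNA of a pair with the same regional order, and it held none of the searched motifs:

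Col4a4 to Col4a3, chr1:82586850-82586920, minus strand, GRCm38.p6, RefSeq: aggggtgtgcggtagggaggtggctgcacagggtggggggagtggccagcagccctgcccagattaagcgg

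Col4a3 averaged 1.61 ± 0.813 CPM in the PVN (SD, n = 10), 4.27 ± 0.912 CPM in the ARC (SD, n = 9) and 1.04 ± 0.668 CPM in the NTS (SD, n = 10), and Col4a4 averaged 0.954 ± 0.671, 3.87 ± 0.923 and 0.726 ± 0.309 CPM in the same regions. Every ARC vehicle library of Col4a4 had at least 2.75 CPM, and no library of the other regions had more than 2.25 CPM. For Col4a4 the log2 difference was -2.0 ± 0.32 for the PVN over the ARC and 2.37 ± 0.31 for the ARC over the NTS (FDR 2.7e-07 and 1.6e-09). Col4a5 and Col4a6, the X-linked pair, were both lower in the PVN than in the NTS (-0.67 ± 0.17 and -1.25 ± 0.31) and in the ARC than in the NTS (-0.40 ± 0.17 and -0.89 ± 0.30). The Col4a5 call for the ARC over the NTS was lost in 4 of 9 alternatives, among them leaving out the libraries numbered 1 and those of low total, at an FDR of up to 0.0634.

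Type VI collagens form beaded filaments next to basement membranes. Of the 6 members, 1 was higher and 2 lower in the PVN than in the ARC, 1 was higher and 3 lower in the PVN than in the NTS. Against the NTS, 2 were higher and 1 lower in the ARC. Those counts lie near or below the shares over all genes, 46%, 56.1% and 61.7%. Col6a3 averaged 0.646 ± 0.283 CPM in the PVN (SD, n = 10), 6.27 ± 2.75 CPM in the ARC (SD, n = 9) and 1.73 ± 0.774 CPM in the NTS (SD, n = 10). The lowest ARC library had 3.57 CPM, above the highest NTS library at 3.23 CPM and the highest PVN library at 1.12 CPM. The log2 difference was -3.30 ± 0.31 for the PVN over the ARC and 1.82 ± 0.27 for the ARC over the NTS. Col6a1 followed with -2.04 ± 0.19 and 1.41 ± 0.18, whereas Col6a2, its partner in the same trimer, had 0.36 ± 0.20 for the PVN over the ARC (FDR 0.13) and was lower in the ARC than in the NTS (-0.90 ± 0.19, FDR 4.3e-05). Col6a5 was higher in the PVN than in the ARC (1.40 ± 0.26) and than in the NTS (0.94 ± 0.24).

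The FACIT collagens bind to the surface of fibrils and bridge them to other matrix, and most were lower in the hypothalamic regions than in the NTS. Of the 9 members, 1 was higher and 2 lower in the PVN than in the ARC, 1 was higher and 8 lower in the PVN than in the NTS. The ARC had 0 higher and 7 lower than the NTS. Over all genes 27.8% were called lower in the PVN than in the NTS and 31.5% lower in the ARC than in the NTS. Col12a1 averaged 6.77 ± 2.59 CPM in the PVN (SD, n = 10), 6.02 ± 1.98 CPM in the ARC (SD, n = 9) and 22.9 ± 7.43 CPM in the NTS (SD, n = 10). Log2 differences for the PVN over the NTS were -1.77 ± 0.19 for Col12a1, -2.54 ± 0.28 for Col22a1, a collagen of tissue junctions, and -1.92 ± 0.24 for Col19a1, a collagen expressed by neurons. Col9a2 was an exception in the PVN only, where it was higher than in the ARC (0.92 ± 0.12) and than in the NTS (0.49 ± 0.11). In the ARC it was called lower than in the NTS, like most of the class.

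Transmembrane collagens are cell surface proteins whose collagenous ectodomain can be shed, and 2 of the 4 were abundant. Col25a1, made by neurons and needed in mice for motor axons to reach muscle, averaged 92.8 ± 12 CPM in the PVN (SD, n = 10), 89.1 ± 11.3 CPM in the ARC (SD, n = 9) and 91.6 ± 15.2 CPM in the NTS (SD, n = 10). None of its 3 contrasts passed; the log2 differences lay between -0.05 and 0.05, with SE between 0.08 and 0.09. Col23a1 was lower in the PVN than in the ARC (-1.76 ± 0.16) and higher in the ARC than in the NTS (0.69 ± 0.15), with 9.62 ± 1.67, 32.6 ± 9.35 and 20.04 ± 4.05 CPM in the PVN, ARC and NTS. Of the other collagens, the anchoring-fibril gene Col7a1 and Col26a1 were lower in both hypothalamic regions than in the NTS, Col28a1 was higher, and the multiplexin Col18a1, the source of endostatin, was higher (0.48 ± 0.19 for the PVN and 0.89 ± 0.19 for the ARC).

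Laminin chains differed by partner. Of the 5 alpha chains, 3 were higher and 1 lower in the PVN than in the ARC, 2 were higher and 1 lower in the PVN than in the NTS. Against the NTS, 0 were higher and 3 lower in the ARC. Of the 3 beta chains the counts were 2 and 1, 1 and 0, and 2 and 1 in the same order. Lamb3 (ENSMUSG00000026639, chr1:193207699-193343878, GRCm38), a beta chain of epithelial laminin, ran between 2.85 and 7.21 CPM (median 4.23) in the PVN, between 32.5 and 56.5 CPM (median 42.9) in the ARC and between 2.32 and 4.94 CPM (median 3.58) in the NTS. The ARC libraries were apart from all others, with log2 differences of -3.26 ± 0.16 for the PVN over the ARC and 3.58 ± 0.16 for the ARC over the NTS (FDR 1.8e-26 and 8.0e-29). Lama3, an alpha chain of epithelial basement membranes, averaged 2.67 ± 1.30 CPM in the PVN (SD, n = 10), 3.55 ± 1.29 CPM in the ARC (SD, n = 9) and 3.07 ± 0.957 CPM in the NTS (SD, n = 10), with no contrast called. Tanycyte markers, the ventricle-lining cells of the ARC, summed to 8.94 ± 2.25 CPM in the PVN (SD, n = 10), 43.7 ± 9.18 CPM in the ARC (SD, n = 9) and 23.3 ± 2.45 CPM in the NTS (SD, n = 10) of vehicle mice. Of the 5, 4 were lower in the PVN than in the ARC and 3 were higher and 1 lower in the ARC than in the NTS; their part in the ARC levels of Lamb3, Col24a1 and the other ARC-rich members was not tested.

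The PVN held the higher levels of several laminin chains. Lama4, the alpha chain of endothelial basement membrane, averaged 9.25 ± 2.99 CPM in the PVN (SD, n = 10), 3.23 ± 0.862 CPM in the ARC (SD, n = 9) and 4.95 ± 1.69 CPM in the NTS (SD, n = 10). Its log2 difference was 1.51 ± 0.21 for the PVN over the ARC and 0.89 ± 0.19 for the PVN over the NTS. Lamc3 had 1.73 ± 0.20 and 0.95 ± 0.18 in the same contrasts, and Lamc1, the gamma chain of most laminins, had 0.61 ± 0.10 and 0.85 ± 0.09. Lamb1 and Lamb2, the alternative beta chains, were ordered differently. Lamb1 averaged 21.6 ± 3.16, 16 ± 3.71 and 6.90 ± 1.68 CPM in the PVN, ARC and NTS, and Lamb2 averaged 46.9 ± 7.30, 18 ± 3.85 and 43.9 ± 6.71 CPM. Lamb1 was higher in the ARC than in the NTS (1.20 ± 0.13) and Lamb2 was lower (-1.30 ± 0.11), while Lamb2 in the PVN and in the NTS did not differ beyond the spread between libraries (0.08 ± 0.10, FDR 0.53).

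Of the 7 ADAMTS proteoglycanases, which cleave aggrecan, brevican and versican, 1 was higher and 3 were lower in the PVN than in the ARC, 2 were higher and 4 lower in the PVN than in the NTS. The ARC had 2 higher and 3 lower than the NTS. Adamts1 averaged 22.2 ± 6.82, 22.4 ± 5.67 and 10.1 ± 2.44 CPM in the PVN, ARC and NTS, with a log2 difference of 1.14 ± 0.17 for both hypothalamic regions over the NTS. Adamts5, its neighbour on chromosome 16, was higher in the PVN than in the ARC (1.42 ± 0.18) and than in the NTS (0.74 ± 0.17). Adamts4, which in brain is expressed by oligodendrocytes, averaged 3.57 ± 0.962, 2.36 ± 1.70 and 10.4 ± 4.94 CPM. It was lower in the PVN (-1.61 ± 0.39) and in the ARC (-2.10 ± 0.41) than in the NTS. Oligodendrocyte markers summed to 713 ± 101 CPM in the PVN (SD, n = 10), 522 ± 171 CPM in the ARC (SD, n = 9) and 2943 ± 1019 CPM in the NTS (SD, n = 10), and all 10 were lower in both hypothalamic regions than in the NTS. Exons of Adamts4, Adamts7, Adamts9 and Col9a3 overlap genes on the other strand; the strand setting of the counting is not given in the sources used here, so their counts are uncertain.

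The remaining proteases also differed in direction from gene to gene. Adamts2, which removes the amino-terminal propeptide of fibrillar procollagens, averaged 31.5 ± 5.24, 14.9 ± 3.35 and 64.1 ± 14.5 CPM in the PVN, ARC and NTS. It was higher in the PVN than in the ARC (1.07 ± 0.14), and lower than in the NTS in both the PVN (-1.04 ± 0.13) and the ARC (-2.11 ± 0.14). Every library fell in that order with no overlap between regions. Of the 8 tested ADAMTS genes without an assigned class here, 3 were higher and 4 lower in the PVN than in the ARC, 1 was higher and 3 lower in the PVN than in the NTS. Against the NTS, 3 were higher and 5 lower in the ARC. Adamts6, Adamts17 and Adamts18 were the ARC-rich members, with log2 differences of -1.83 ± 0.15, -1.57 ± 0.18 and -2.49 ± 0.26 for the PVN over the ARC and 1.96 ± 0.15, 1.5 ± 0.18 and 1.04 ± 0.23 for the ARC over the NTS. Adamts16 was lower in the PVN than in the NTS (-2.04 ± 0.25).

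ADAMTS-like proteins share the ancillary domains of the proteases without a catalytic domain. Of the 5, 1 was higher and 1 lower in the PVN than in the ARC, 1 was higher and 2 lower in the PVN than in the NTS. The ARC had 2 higher and 3 lower than the NTS. Adamtsl1 ran between 4.95 and 9 CPM in the PVN, between 0.492 and 2.57 CPM in the ARC and between 4.08 and 15.6 CPM in the NTS, so the ARC libraries were below all others (2.47 ± 0.25 for the PVN over the ARC and -2.74 ± 0.24 for the ARC over the NTS). Adamtsl2 was higher in the PVN than in the NTS (1.14 ± 0.16), and Adamtsl4, a microfibril-associated member, was lower in the PVN (-1.57 ± 0.28) and in the ARC (-2.31 ± 0.31) than in the NTS.

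Of the 3 tested CCN genes, 1 was higher and 1 lower in the PVN than in the ARC, 2 were higher and 0 lower in the PVN than in the NTS. Against the NTS, 1 was higher and 0 lower in the ARC. Ccn3 averaged 4.77 ± 1.27, 9.14 ± 2.72 and 3.46 ± 1.49 CPM in the PVN, ARC and NTS and was higher in the ARC than in the NTS (1.44 ± 0.18). Ccn1 was higher in the PVN than in the ARC (0.90 ± 0.26, FDR 0.0027) and than in the NTS (0.57 ± 0.24, FDR 0.038). The second call was lost with library totals alone, without the vehicle libraries numbered 5553 to 5557 and with vehicle libraries only, at an FDR of up to 0.103. Ccn2 averaged 5.59 ± 2.19 CPM in the PVN (SD, n = 10), 6.82 ± 2.80 CPM in the ARC (SD, n = 9) and 6.06 ± 2.86 CPM in the NTS (SD, n = 10) and had no regional call.

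Treatment moved few of these genes. In the PVN 1 of 67 members tested was called, Ccn2, which rose, where 0.656% of all 13409 genes tested were called and 0.529% were called higher. In the ARC 0 of 69 members were called and in the NTS 0 of 73, where 0% of all genes were called in either region by the same edgeR test. DESeq2 and limma-voom also called 0 members in the ARC and 0 in the NTS. Of all genes, DESeq2 called 0.323% and 0.304% there and limma-voom 0.0371% and 0.139%. In the PVN DESeq2 called 1 of 85 members, Ccn2, where 1.15% of all genes were called. Limma-voom called 3 of 67 in the PVN, Ccn2, Adamts9 and Adamts20, all higher, where 3.79% of all genes were called. At an unadjusted p under 0.05, 11 members (16.4%) passed in the PVN where 9.34% of all genes did, 7 (10.1%) in the ARC where 7.2% did, and 5 (6.85%) in the NTS where 5.8% did. The median log2 change of the tested members was -0.02 in the PVN, 0.05 in the ARC and 0.02 in the NTS, and over all genes -0.02, 0.00 and 0.00.

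**Figure D3:**
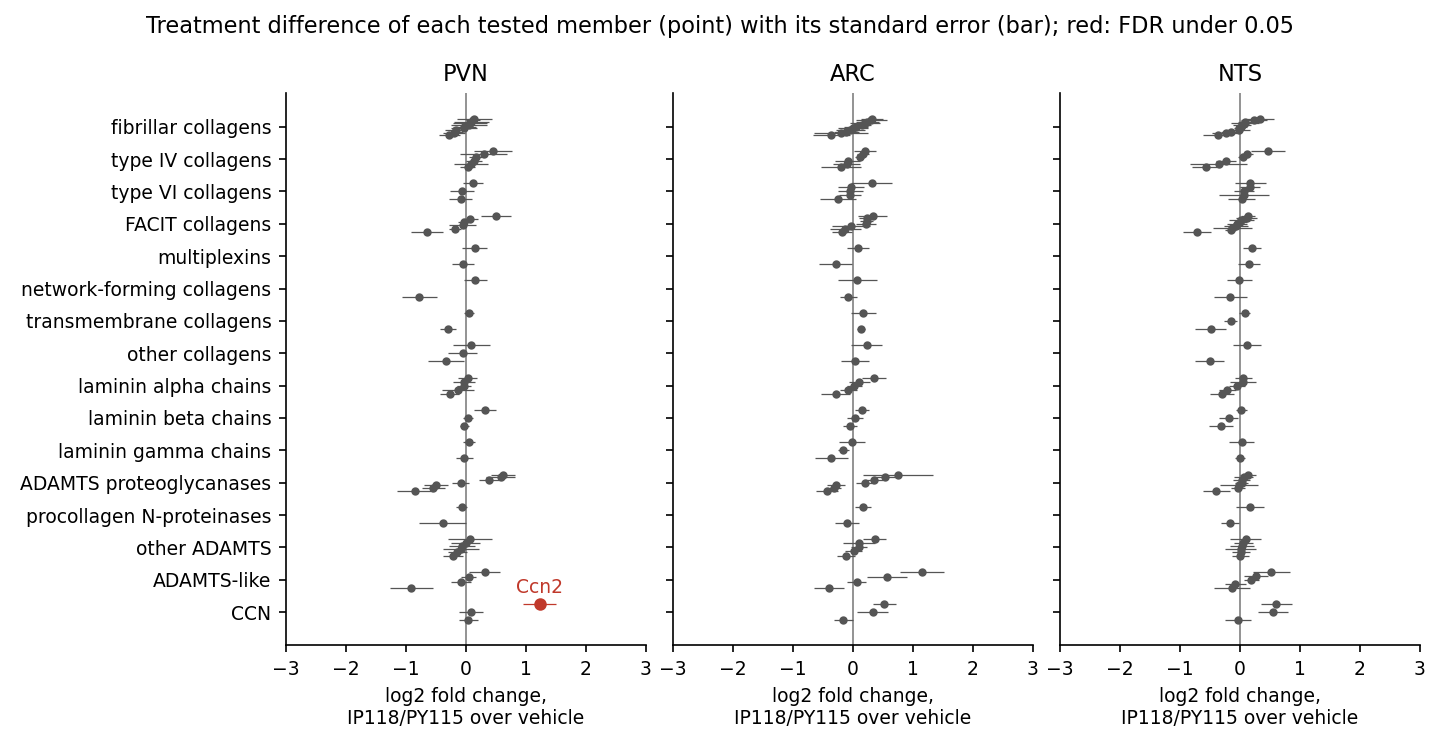
Log2 fold change of IP118/PY115 over vehicle (x axis) for each tested member, with its standard error as a bar and members grouped by family in rows, in the PVN, ARC and NTS. Ccn2 in the PVN, at 1.23, is the single point past an FDR of 0.05.

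Ccn2 (ENSMUSG00000019997, chr10:24595442-24598683, GRCm38), older name Ctgf, encodes connective tissue growth factor, a secreted protein and common target of the YAP/TEAD and TGF-beta pathways. PVN levels ran between 4.12 and 29.1 CPM (median 13.1, mean 13.6 ± 6.82) in IP118/PY115 libraries, against between 3.10 and 9.66 CPM (median 5.06, mean 5.59 ± 2.19) in vehicle libraries (SD, n = 10 each). The groups overlapped at the libraries numbered 1: the lowest IP118/PY115 value, 4.12 CPM, and the highest vehicle value, 9.66 CPM, both came from them. Among the other 9 libraries of each group the lowest IP118/PY115 value was 8.78 CPM and the highest vehicle value was 9.11 CPM. The log2 fold change was 1.23 ± 0.27 (FDR 0.0359), and 1.49 ± 0.22 (FDR 2.3e-04) without the libraries numbered 1.

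In the ARC, Ccn2 ran between 4.99 and 12.1 CPM (median 10.3) in IP118/PY115 libraries, against between 3.37 and 11.9 CPM (median 7.07) in vehicle libraries. In the NTS its range was 4.20 to 13.5 CPM (median 8.37) in IP118/PY115 libraries, against 2.40 to 11.6 CPM (median 5.76) in vehicle libraries. Log2 fold changes were 0.53 ± 0.20 in the ARC (FDR 0.502) and 0.55 ± 0.25 in the NTS (FDR 0.842), and neither passed. Without the libraries numbered 1 they were 0.63 (FDR 0.151) and 0.77 (FDR 0.152), where 1.14% of all genes were called in the ARC and 1.18% in the NTS, and 0 members were called in either. The difference of the PVN change from the ARC or the NTS change was not called.

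The PVN call of Ccn2 rested on many libraries together. It was lost when any 1 of 14 libraries was left out (IP118/PY115 3, 5, 6, 7, 8 or 10, or vehicle 2, 3, 4, 6, 7, 8, 9 or 10), with log2 fold changes between 1.04 and 1.38 and FDR values between 0.0021 and 0.085 over all 20 such fits. With the mean log2 CPM of the oligodendrocyte markers (their score) as a covariate the log2 fold change was 0.88 (FDR 0.157). With the log10 library total it was 1.12 (FDR 0.148). Without PVN vehicle 3 and 8, the libraries of low total, it was 1.15 (FDR 0.137), and with no filter on low counts 1.24 (FDR 0.0557). PVN vehicle 8, 9 and 10 carry labelled library numbers that stand apart, and without them it was 1.09 (FDR 0.234). Oligodendrocyte markers summed to 674 ± 90.5 CPM in PVN IP118/PY115 libraries and 713 ± 101 CPM in PVN vehicle libraries, and edgeR called 0 of the 10. Endothelial markers summed to 758 ± 61.5 CPM and 690 ± 74.2 CPM, and edgeR called 0 of 11. In the PVN DESeq2 called the endothelial marker Slc2a1 (higher), and limma-voom called Slc2a1 (higher) and Cldn5 and Kdr (lower). Both tools also called Slc2a1 higher in the NTS, where no member was called. By edgeR the PVN log2 fold changes were 0.53 ± 0.15 for Slc2a1 (FDR 0.125), -0.22 ± 0.12 for Cldn5 (FDR 0.655) and -0.46 ± 0.15 for Kdr (FDR 0.227). The part of endothelial cells in the Ccn2 result was not tested beyond the fit with their score.

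**Figure D4:**
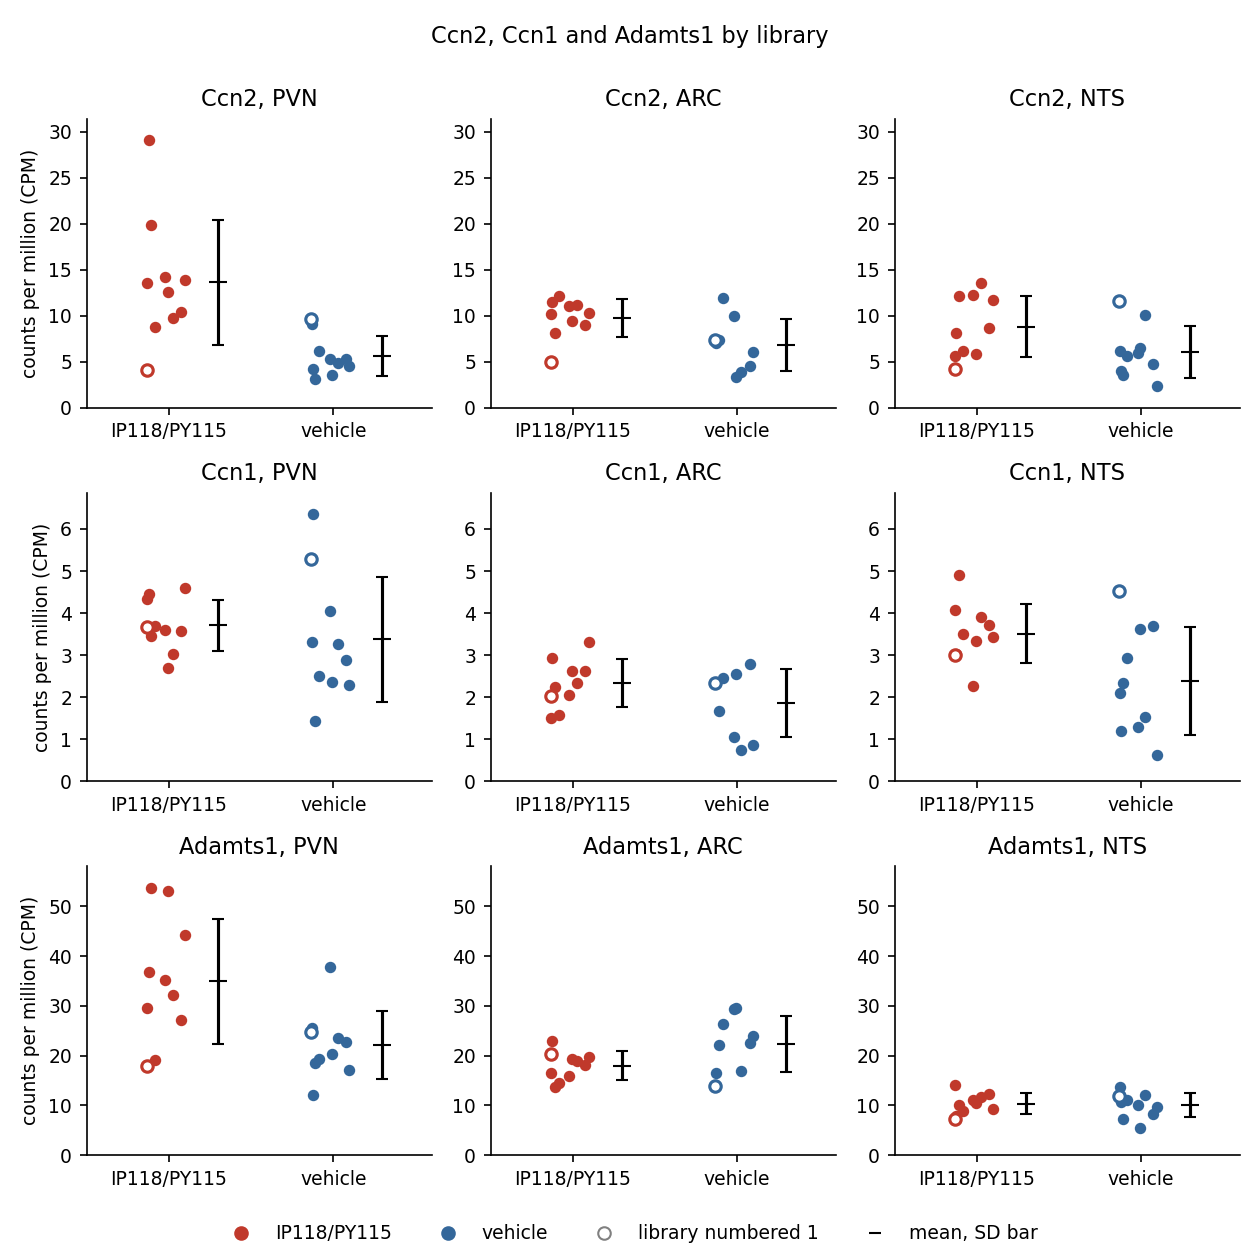
Level in CPM of Ccn2, Ccn1 and Adamts1 in each library of the PVN, ARC and NTS, IP118/PY115 in red left of vehicle in blue, with the mean and SD beside each group and open points for the libraries numbered 1. PVN Ccn2 reaches 29.1 CPM under IP118/PY115 and at most 9.66 CPM under vehicle, while the groups of the other panels overlap widely.

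Ccn1, older name Cyr61, encodes a relative of Ccn2 that is also induced rapidly. Its 250 upstream bases are shown as those of the CCN member with a RefSeq window, with a TEAD match, a cyclic AMP core and a TATA box in capitals in that order:

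Ccn1, chr3:145649986-145650235, minus strand, GRCm38.p6, RefSeq: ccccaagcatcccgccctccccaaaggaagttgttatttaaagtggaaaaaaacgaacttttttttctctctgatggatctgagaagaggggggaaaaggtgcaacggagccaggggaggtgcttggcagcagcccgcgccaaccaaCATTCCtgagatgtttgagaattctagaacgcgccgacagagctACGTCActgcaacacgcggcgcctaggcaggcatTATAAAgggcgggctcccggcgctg

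The TEAD match CATTCC, which is GGAATG on the other strand, starts 103 bases upstream of the start, ACGTCA starts 59 bases upstream and TATAAA 25 bases upstream. Ccn1 ran between 2.69 and 4.59 CPM (median 3.64) in PVN IP118/PY115 libraries, against between 1.45 and 6.36 CPM (median 3.07) in PVN vehicle libraries. In the ARC it averaged 2.33 ± 0.570 CPM under IP118/PY115 (SD, n = 10) and 1.87 ± 0.801 CPM under vehicle (SD, n = 9). In the NTS it averaged 3.52 ± 0.710 CPM under IP118/PY115 and 2.39 ± 1.27 CPM under vehicle (SD, n = 10 each), a log2 fold change of 0.60 ± 0.26 that did not pass (FDR 0.721).

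By edgeR none of the ADAMTS genes passed in the PVN, while limma-voom called Adamts9 (0.75, FDR 0.0416) and Adamts20 as higher, and the proteoglycanases lay on both sides of 0. Adamts1, the most abundant of them there, ran between 17.9 and 53.7 CPM (median 33.7) in IP118/PY115 libraries, against between 12 and 37.8 CPM (median 21.6) in vehicle libraries, with 0.62 ± 0.20 on the log2 scale (FDR 0.225). Adamts9 averaged 5.11 ± 1.41 CPM under IP118/PY115 and 3.20 ± 1.83 CPM under vehicle (0.58 ± 0.25, FDR 0.412). Adamts4 averaged 2.40 ± 0.586 CPM under IP118/PY115 and 3.57 ± 0.962 CPM under vehicle (-0.55 ± 0.19, FDR 0.251). Adamts5 averaged 12.4 ± 4.28 CPM under IP118/PY115 and 17.5 ± 5.85 CPM under vehicle (-0.50 ± 0.20, FDR 0.351; SD, n = 10 each throughout). Adamts8, which lies head to head with Adamts15 on chromosome 9, had -0.85 ± 0.30 (FDR 0.253). Without the libraries numbered 1, 3 of these passed beside Ccn2: Adamts9 was higher (0.85, FDR 0.0396), and Adamts4 (-0.71, FDR 0.021) and Adamts5 (-0.72, FDR 0.0124) were lower, where 3.22% of all genes were called. In that set Adamts4 ran between 1.49 and 2.95 CPM in IP118/PY115 libraries, against between 3.04 and 5.36 CPM in vehicle libraries, with no overlap.

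The other PVN members with the smallest p-values were low and did not pass: Col8a2 (-0.77 ± 0.30, FDR 0.329), Adamtsl3 (-0.91 ± 0.35, FDR 0.332) and Col19a1 (-0.65 ± 0.27, FDR 0.411). The basement membrane and fibrillar genes lay close to their controls. Col4a1 averaged 85.8 ± 13.7 CPM under IP118/PY115 and 75.2 ± 17.8 CPM under vehicle, Col4a2 105 ± 17.8 CPM and 102 ± 23 CPM, and Lamc1 61.6 ± 6.90 CPM and 59.2 ± 12.6 CPM. Col1a1 averaged 2.24 ± 1.06 CPM under IP118/PY115 and 2.15 ± 1.21 CPM under vehicle, Col1a2 14.1 ± 2.66 CPM and 12.7 ± 2.27 CPM, Col3a1 2.27 ± 1.16 CPM and 2.05 ± 0.933 CPM, and Lama1 4.62 ± 1.33 CPM and 4.65 ± 1.48 CPM (SD, n = 10 each). Their FDR values were between 0.767 and 0.985.

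In the ARC the member with the smallest p was Adamtsl4, at 1.17 to 7.50 CPM (median 1.93) in IP118/PY115 libraries, against 0.524 to 2.33 CPM (median 0.964) in vehicle libraries (1.15 ± 0.37, FDR 0.316). The groups overlapped. Ccn2 followed with the values given above, and then Adamts1, with 18 ± 2.82 CPM under IP118/PY115 (SD, n = 10) and 22.4 ± 5.67 CPM under vehicle (SD, n = 9; -0.32 ± 0.12, FDR 0.543), Adamts20 (0.54 ± 0.21, FDR 0.545), Adamts5 (-0.44 ± 0.18, FDR 0.595), Adamts8 (0.35 ± 0.15, FDR 0.610), Col25a1 (0.14 ± 0.06, FDR 0.658) and Col9a3 (0.23 ± 0.12, FDR 0.711). Adamts4 ran between 0.789 and 17.4 CPM (median 2.51) in IP118/PY115 libraries, against between 0.429 and 6.28 CPM (median 2.46) in vehicle libraries. Its highest library, IP118/PY115 2, also had the highest sum of oligodendrocyte markers in the ARC, 3950 CPM, where the ARC groups averaged 998 CPM under IP118/PY115 and 522 CPM under vehicle. The abundant basement membrane genes overlapped between groups, with Col4a1 at 58.9 ± 7.79 CPM under IP118/PY115 and 54.4 ± 5.40 CPM under vehicle and Lamc1 at 34.8 ± 6.09 CPM under IP118/PY115 and 38.8 ± 3.77 CPM under vehicle.

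In the NTS the smallest p belonged to Col20a1, at 0.428 to 1.87 CPM (median 0.975) in IP118/PY115 libraries, against 1.19 to 2.47 CPM (median 1.70) in vehicle libraries (-0.72 ± 0.24, FDR 0.4215). The ranges overlapped. Col4a6 averaged 1.95 ± 0.794 CPM under IP118/PY115 and 2.84 ± 0.900 CPM under vehicle (-0.57 ± 0.23, FDR 0.677), and Col7a1 2.99 ± 1.12 CPM and 4.25 ± 1.67 CPM (-0.50 ± 0.24, FDR 0.856; SD, n = 10 each). Col13a1 (-0.49 ± 0.27), Adamts8 (-0.39 ± 0.23) and Adamtsl5 (0.53 ± 0.30) had FDR values between 0.959 and 0.996. Col1a2, so abundant there, averaged 98 ± 16.1 CPM under IP118/PY115 and 96.2 ± 13.6 CPM under vehicle, and Adamts1 10.3 ± 2.10 CPM under IP118/PY115 and 10.1 ± 2.44 CPM under vehicle.

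Whether the treatment change itself differed between regions was tested for all members in 1 fit, and none of the 79 passed in any of the 3 comparisons. Over all genes 0.0487% were called for the PVN minus the ARC, 0.0904% for the PVN minus the NTS and 0% for the ARC minus the NTS; at an unadjusted p under 0.05 the members counted 9, 5 and 6, or 11.4%, 6.33% and 7.59%, where 6.21%, 4.28% and 3.76% of all genes passed. DESeq2 likewise called 0 members in each. Adamts1 came nearest: its change in the PVN exceeded that in the ARC by 0.94 ± 0.23 on the log2 scale (FDR 0.172) and that in the NTS by 0.60 ± 0.24 (FDR 0.897). Without the libraries numbered 1 the PVN minus ARC difference of Adamts1 was 1.13 ± 0.23 and passed (FDR 0.00585), where 0.362% of all genes were called. Adamts8 differed by -1.20 ± 0.32 (FDR 0.196) and Col19a1 by -0.98 ± 0.35 (FDR 0.603) for the PVN minus the ARC. For the PVN minus the NTS, Lamb3 had 0.61 ± 0.25 (FDR 0.924) and Col4a6 1.02 ± 0.42 (FDR 0.950), and for the ARC minus the NTS, Adamts8 had 0.74 ± 0.30, Col9a2 0.39 ± 0.16 and Col20a1 1.04 ± 0.47 (FDR 0.99992 each).

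Levels of a few members followed cell type markers from library to library within a region. Over 18 relations tested between collagen or laminin genes and summed markers on the log2(CPM + 1) scale, 4 passed by Pearson r. This was after Benjamini-Hochberg adjustment of permutation p-values with 100000 resamples, and the p-values given here are those of Pearson r unless said otherwise. In the ARC (19 libraries) Col1a1 followed meningeal fibroblast markers with Pearson r = 0.836 and Spearman rho = 0.851 (two-sided permutation p 1e-05, the smallest these resamples can give, adjusted p 1.8e-04). Within ARC IP118/PY115 libraries r was 0.786 (permutation p 0.00819) and within ARC vehicle libraries 0.889 (exact permutation p 0.00133). Leaving out ARC vehicle 2 and 4, the libraries farthest from the median of the markers, gave r = 0.80. Col1a2 in the ARC had r = 0.831 and rho = 0.772 (permutation p 6e-05, adjusted p 5.4e-04), with 0.788 within IP118/PY115, 0.874 within vehicle and 0.789 without the same 2 libraries. Col3a1 in the ARC had r = 0.643 (permutation p 0.00369, adjusted p 0.0166), with 0.545 within IP118/PY115 and 0.681 within vehicle. Without the same 2 libraries r was 0.44 (permutation p 0.0761), so it rests on them. Its rho of 0.458 did not pass (Spearman permutation p 0.0504, adjusted p 0.223), whereas the other 3 relations passed by rank as well. In the NTS, where Col1a2 was most abundant, its r with the same markers was 0.155 (rho 0.114, permutation p 0.513, adjusted p 0.616).

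The fourth relation was in the PVN (20 libraries), where Col4a1 followed endothelial markers with r = 0.637 and rho = 0.60 (permutation p 0.00333, adjusted p 0.0166). It was 0.671 within IP118/PY115 (rho 0.309) and 0.537 within vehicle (rho 0.709). Without PVN vehicle 3 and 8, r over both treatments was 0.585 (permutation p 0.00924) and no longer passed the adjustment. Within IP118/PY115 r was 0.133 without IP118/PY115 1 and 9, so the Pearson relation within that treatment rests on them. Col4a1 gave r = -0.0338 in the ARC and -0.16 in the NTS, neither passing. Against the same markers Col4a2 gave r = 0.374 in the PVN, -0.26 in the ARC and -0.131 in the NTS. Lama4 gave r = 0.30, -0.00825 and -0.216 in the same regions, and none of these passed. A relation of Adamts4 to oligodendrocyte markers was added after its values were seen and is a description. Its r was 0.457 in the PVN, 0.927 in the ARC and 0.876 in the NTS, and 0.308, 0.832 and 0.91 without the 2 farthest libraries of each region.

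**Figure D5:**
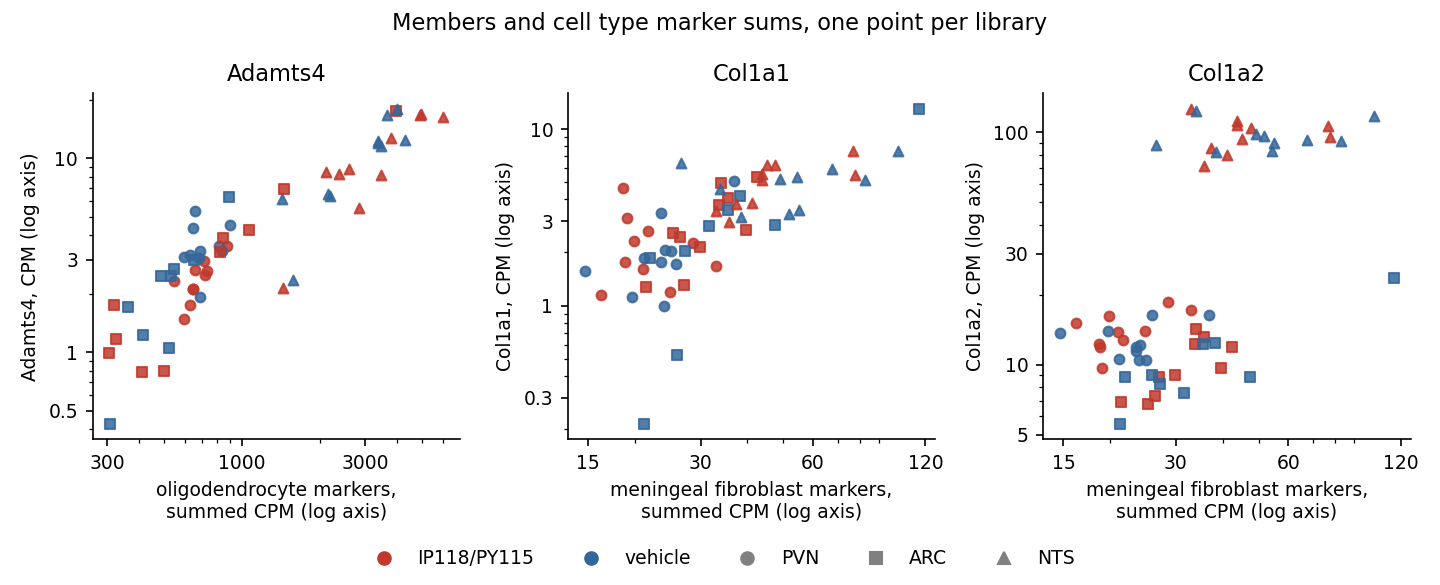
Level in CPM (log axis) of Adamts4 against summed oligodendrocyte markers, and of Col1a1 and Col1a2 against summed meningeal fibroblast markers (CPM, log axis), 1 point per library, with colour for treatment and shape for region. Col1a2 of the NTS lies apart above the other regions at the same marker sums, and Adamts4 follows the oligodendrocyte sum across regions.

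Genes that act with the members were listed by role. By edgeR 0 of the genes tested on the 6 lists were called for treatment in any region. At an unadjusted p under 0.05 there were 6 of 100 in the PVN, where 9.34% of all genes passed. There were 9 of 99 in the ARC and 4 of 101 in the NTS, where 7.2% and 5.8% of all genes passed. DESeq2 called 0 in the PVN, 1 in the ARC (the peroxidasin gene Pxdn, higher, whose product crosslinks type IV collagen) and 0 in the NTS, and limma-voom called Ddr1 in the PVN (lower) and Pxdn in the ARC. In the PVN the lists held 24 collagen biosynthesis genes, 10 basement membrane partners, 17 matrix receptors, 15 ADAMTS substrates and inhibitors, 18 YAP/TEAD and SRF regulators or targets, and 16 TGF-beta genes. Those with the smallest p there by edgeR included the collagen receptor gene Ddr1 (-0.19 ± 0.07, FDR 0.305) and the proteoglycan gene Bcan (-0.13 ± 0.06, FDR 0.402). In the ARC Pxdn had 0.38 ± 0.09 (FDR 0.156).

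Between regions 63 of 105 genes on these lists were called for the PVN over the ARC, 77 for the PVN over the NTS and 74 for the ARC over the NTS, where 46%, 56.1% and 61.7% of all genes were. Several lists lay near those shares, such as the TGF-beta genes for the PVN over the ARC, and the basement membrane partners and ADAMTS substrates for the PVN over the NTS. Of 18 matrix receptors, 10 were higher and 2 lower in the PVN than in the ARC, 7 were higher and 7 lower in the PVN than in the NTS. The ARC had 5 higher and 9 lower than the NTS. Itga11, the alpha chain of a fibrillar collagen receptor, had a log2 difference of -4.42 ± 0.29 for the PVN over the ARC and 4.50 ± 0.27 for the ARC over the NTS. Of 26 collagen biosynthesis genes, 7 were higher and 7 lower in the PVN than in the ARC, 8 and 11 in the PVN than in the NTS, and 9 and 5 in the ARC than in the NTS. Of 11 basement membrane partners the counts were 5 and 4, 3 and 3, and 2 and 4 in the same order. Fbln1, a basement membrane glycoprotein, was higher in the PVN than in the ARC (3.21 ± 0.15) and lower in the ARC than in the NTS (-2.53 ± 0.15), and Nid1, the laminin-binding nidogen, likewise (2.08 ± 0.20 and -2.13 ± 0.19). Of 16 ADAMTS substrates and inhibitors, 5 were higher and 4 lower in the PVN than in the ARC, 5 and 4 in the PVN than in the NTS, and 6 and 7 in the ARC than in the NTS. Among 18 YAP/TEAD and SRF genes the counts were 10 and 2, 7 and 10, and 4 and 11, and among 16 TGF-beta genes 4 and 3, 7 and 5, and 8 and 4.

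Col4a3bp, the gene that the symbol rule drew in without being a collagen, averaged 133 CPM under IP118/PY115 and 137 CPM under vehicle in the PVN, 115 CPM and 108 CPM in the ARC, and 122 CPM and 111 CPM in the NTS. It was higher in the PVN than in the ARC (0.34 ± 0.06) and than in the NTS (0.29 ± 0.06) in vehicle mice, and was called for treatment in no region.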

How the data were processed

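PolyA RNA of laser-captured PVN, ARC and NTS was sequenced in 59 libraries. The authors deposited 1 table of raw read counts per Ensembl gene. Per the submitters' processing notes, bcl2fastq 2.20.0.422 and STAR 2.5.2a were used on GRCm38; the counter, its strand setting and the annotation release are not given in the sources used here. Symbols, coordinates and exon lengths came from GENCODE mouse release 21, on the same build.

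Counts were tested with edgeR 4.0.16 in R 4.3.3: filterByExpr (minimum count 10, minimum total 15), TMM factors, a robust quasi-likelihood fit and Benjamini-Hochberg adjustment over all genes (FDR under 0.05). Each region was fitted alone for treatment; regional contrasts and differences in treatment effect came from 1 fit of 6 groups. The described sampling took each region from each animal, and the labels do not say which libraries share one. The 1 fit of 6 groups takes all libraries as independent. No batch is labelled beyond library numbers. These run from 5465 to 5484 in the PVN, 5509 to 5528 in the ARC and 5726 to 5745 in the NTS. Vehicle libraries 5553 to 5557 of the PVN and the ARC are the exception. CPM were TMM-adjusted over all libraries, per kb of exon where levels of different genes are compared, and a pseudocount of 1 CPM was used for correlations. Library totals of 3964093 to 28510118 counts limit the precision for members near 1 CPM. Permutation tests were run with numpy 2.4.6, with ranks from scipy 1.17.1. Alternatives were DESeq2 1.42.0, limma 3.58.1 (voom with quality weights), other scaling, other filters, covariates, and leaving libraries out. The fits were tested on simulated data.

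Genes named were, for treatment in each region, every called member, the 8 with the smallest p, and Ccn1, Ccn2, Col1a1, Col1a2, Col3a1, Col4a1, Col4a2, Lama1, Lamc1, Adamts1, Adamts4 and Adamts9; between regions, up to 8 called members in each direction with the largest difference and at least 5 CPM in the higher region; for differences in treatment effect, those called or the 3 with the smallest p. Others that are named were chosen after their values were seen. The members and the pathway and marker lists were chosen with earlier results of these data known. A few items are not reported here.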

Additional observations from a re-analysis of the deposited data

Results flagged for a closer look

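Of 169 sets of libraries, each 1 named member in 1 group, 17 (10.1%) had a library set apart from the others by Dixon's ratio at the 95% level. For independent sets of normally spread values chance sets apart about 1 in 20. CPM need not be normally spread and the sets share libraries, so an excess over chance cannot be read from these shares. In the ARC, vehicle 2 was high for 4 collagens, with 12.96 CPM of Col1a1 (next library 4.155 CPM), 23.68 CPM of Col1a2 (12.38 CPM), 9.535 CPM of Col3a1 (5.207 CPM) and 54.96 CPM of Col23a1 (38.4 CPM). The same library had the highest sum of meningeal fibroblast markers, 115 CPM, in the ARC vehicle group; its part in these values was not tested. Also in the ARC, Col11a2 reached 12.09 CPM in vehicle 9 (8.154 CPM).

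Adamts4 stood apart in both ARC groups, at 17.42 CPM in IP118/PY115 2 (next 6.955 CPM) and 6.277 CPM in vehicle 8 (next 2.975 CPM). IP118/PY115 2 also had the highest oligodendrocyte marker sum of its group, 3950 CPM. In the PVN, the library labelled IP118/PY115 1 was highest for Adamts5 at 22.26 CPM (next 14.7 CPM) and for Col8a2 at 1.949 CPM (next 1.074 CPM). Among PVN vehicle libraries, vehicle 6 had 37.84 CPM of Adamts1 (next 25.56 CPM), vehicle 7 had 6.563 CPM of Col2a1 (next 2.731 CPM) and vehicle 8 had 4.138 CPM of Col8a2 (next 1.857 CPM).

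In the NTS, IP118/PY115 8 was highest for Col4a2 at 88.26 CPM (next 58.67 CPM) and for Lama1 at 20.79 CPM (next 13.63 CPM). NTS vehicle 7 was highest for Col6a5 at 7.842 CPM (next 4.331 CPM) and lowest for Lamb1 at 2.759 CPM (next 5.803 CPM). The library labelled NTS vehicle 1 had 15.62 CPM of Adamtsl1 (next 9.962 CPM).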

How the results depend on the processing

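The count of members called for treatment in the PVN was 1 and changed with many settings. It was 3 with limma-voom, 4 without the libraries numbered 1, and 0 with no filter on low counts, with the log10 library total as a covariate, with the oligodendrocyte score, with the meningeal and endothelial scores, without the vehicle libraries whose labelled numbers run from 5553 to 5557, and without the low-total libraries (PVN vehicle 3 and 8). It ran between 0 and 2 when single libraries were left out, when 8 to 276 of all genes were called, and was 2 (Ccn2 and Adamts9) without vehicle 1. Over all genes the PVN count was 88, and it was 206 with DESeq2, 508 with limma-voom, 429 without the libraries numbered 1, 175 at an FDR under 0.1, 51 with the meningeal and endothelial scores, 12 without the libraries 5553 to 5557, 9 without the low-total libraries, 7 with the oligodendrocyte score and 6 with the library total. The Ccn2 change lost its call with FDR 0.0557 (no filter), 0.0568 (meningeal and endothelial scores), 0.148, 0.157, 0.234 and 0.137 in the settings that gave 0; the cause was not tested.

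The ARC and NTS counts of members stayed at 0 in every alternative run. Over all genes, where edgeR called 0, DESeq2 called 58 in the ARC and 56 in the NTS, and limma-voom 5 and 19. Without the libraries numbered 1 edgeR called 153 in the ARC and 162 in the NTS, and up to 85 and 92 when a single library was left out. For differences in treatment effect, the counts over all genes of 7, 13 and 0 (PVN minus ARC, PVN minus NTS, ARC minus NTS) became 52, 62 and 35 without the libraries numbered 1. Regional counts ran between 41 and 45 for the PVN over the ARC, between 48 and 55 for the PVN over the NTS and between 55 and 61 for the ARC over the NTS. All 432 refits of the 48 regional differences named by the rule kept direction and call. Of all 155 regional calls of members 144 kept their call in every alternative that tested the member, and none changed direction. Some low members were not tested in all: Adamts7 was in 7 of 9, and Adamts12, Col20a1 and Col28a1 were in 8 of 9. The other 11 calls were lost in some. For the PVN over the ARC they were Adamts10, Adamts16, Col16a1 and Col27a1. For the PVN over the NTS they were Ccn1, Ccn3, Col17a1, Col3a1, Col6a1 and Col6a2, and for the ARC over the NTS Col4a5. Without the libraries numbered 1, the PVN over ARC call was lost for Adamts10, Adamts16 and Col27a1. In that setting Adamtsl4 (higher) and Col6a6 (lower) gained it. For treatment, 769 of 794 refits of 25 named values kept direction and call, 20 lost the call and 5 gained it. Ccn2 in the PVN was the only one of these values that was called, so all 20 losses were its own. For the others a kept call means that they stayed uncalled. Named members without a given fold change were not in this count. Their sign differed in 0 (such as Col4a1 in the ARC) to 13 of 31 refits (Adamts4 in the NTS). The PVN minus ARC difference in treatment effect had 1 member called (Adamts1) without the libraries numbered 1, and 0 otherwise. Marker relations that passed by Pearson r numbered 4, and 2 without the 2 libraries farthest from the median marker sum, an alternative chosen after seeing the data. By Spearman rho, Col3a1 in the ARC was the relation of these 4 that did not pass. Group means moved by at most 3.07% with totals alone. No paired analysis was possible because replicate numbers follow accession order and the labels tie no library to an animal.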
